A study of Mus musculus with 2 samples.

Results

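The transcripts of Dicer1 and Arhgap19 were examined in E12.5 mouse distal forelimbs, comparing 1 library from wild-type embryos with 1 from embryos that carry HoxD Inv(TpSB1-Itga6). Both genes were chosen by their transcript values in these same libraries, since each has a transcript with many reads in one library and none in the other. They were found by their gene symbol, and 6 of the 64053 transcripts in the table belong to them, 4 to Dicer1 and 2 to Arhgap19, among 23157 genes in all. The transcript values are therefore given as a description and no test was applied to them.

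In the HoxD Inv(TpSB1-Itga6) allele a segment of 2.4 Mb next to the HoxD cluster on chromosome 2 is turned around. Neither Dicer1 (chromosome 12) nor Arhgap19 (chromosome 19) lies on that chromosome. The embryos of both libraries carry the strain label C57Bl6CBAF1, the mutant tissue came from homozygous embryos, and the design note gives 3 pairs of forelimbs for a sample. RNA was poly(A)-selected, and 9280660 reads of the wild-type library (labelled wtFL) and 9466154 of the inversion library (labelled invDFL) could be recovered from the table. These titles differ, and wtFL does not name the distal part, but its tissue label and table column do, so it was taken as distal forelimb. As there is 1 pool per genotype, no difference has a replicate check. Xist, the RNA that coats the inactive X chromosome in females, stood at a log2 ratio (inversion to wild type) of -7.58, and pool, embryo sex and genotype cannot be told apart. The 95% intervals below are exact Clopper-Pearson intervals, of a transcript's share or, for log2 ratios, of the inversion library's part of the reads. They cover counting error only, not the error of dividing reads among transcripts.

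As background, Dicer1 is the ribonuclease that cuts microRNA hairpins and long double-stranded RNA into short duplexes, which Argonaute proteins then use to silence messenger RNAs. Its removal from mouse limb mesenchyme is known to give small limbs with largely intact patterning. Arhgap19 is a GTPase-activating protein that switches off the small GTPase RhoA, whose activity at the cell equator drives cytokinesis.

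The exons that tell the listed Arhgap19 transcripts apart were read from GENCODE M21 on the GRCm38 assembly, another build than that used for mapping, through the transcript identifiers. The gene lies on the minus strand of chromosome 19 from 41766588 to 41802047. ENSMUST00000026150, called the long transcript here, has 12 exons and 5103 nt, and ENSMUST00000163265, the short transcript, has 11 exons and 1812 nt. Both begin at the same position and share exons 1 to 10. The short transcript lacks the coding exon 11 of the long transcript, at chr19:41773050-41773128, and ends earlier within the last exon. Exon 11 is 79 nt long, which is not a multiple of 3, and the 11 nt of coding sequence in the last exon of the long transcript become 45 nt in the short transcript. The annotated coding sequences predict 494 and 479 residues. The coding bases around the skipped exon are shown because a read must cross them, or fall in the longer 3′ end, to separate these transcripts. Both start with the last 20 bases of exon 10. Capitals mark exon 11 in the sequence of the long transcript, and the 10 bases on each side of the joined exons in that of the short transcript.
Arhgap19 long: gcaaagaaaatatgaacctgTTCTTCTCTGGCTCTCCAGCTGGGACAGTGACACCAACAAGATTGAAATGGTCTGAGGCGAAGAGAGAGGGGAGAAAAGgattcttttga
Arhgap19 short: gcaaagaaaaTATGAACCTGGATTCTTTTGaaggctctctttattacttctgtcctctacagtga

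**Figure D1:**
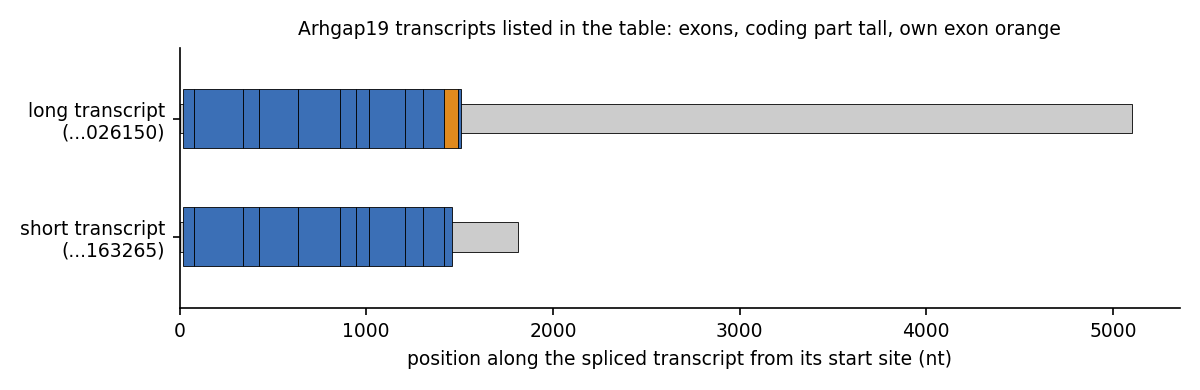
Exons of the 2 listed Arhgap19 transcripts along the spliced RNA, in nt from the start site. Tall boxes are coding, low boxes are untranslated, and the 79 nt exon of the long transcript that the short transcript lacks is orange. The long transcript is 5103 nt long and the short transcript is 1812 nt long, with most of the difference in the untranslated 3′ end.

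Windows of 100 nt, the length of the sequenced reads, were compared between these transcripts. Of the 5004 windows of the long transcript, 3389 (67.7%) occur in no other listed transcript of the gene. Of the 1713 windows of the short transcript, only 98 (5.72%) are its own, and the other 1615 are also in the long transcript. A read that matches the short transcript thus nearly always matches the long transcript too.

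In the wild-type library, the long transcript had 1433 reads (1451 normalized reads). The short transcript had 0 of the 1433 reads of the gene, and the exact interval of its share reached up to 0.257%. In the inversion library, the long transcript had 313 reads (309 normalized reads) and the short transcript had 867 (856 normalized reads). The wild-type library was thus listed with the long transcript alone, and the inversion library mainly with the short transcript.

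The share of the short transcript in the reads of its gene was 0% in wild type and 73.5% in the inversion (95% interval 70.9 to 76.0%), while that of the long transcript went from 100% to 26.5% (24.0 to 29.1%). Against a floor of 3 reads in wild type, the short transcript in the inversion was at least 282-fold higher, a bound that leaves out counting error. Per length, the long transcript was at 284 normalized reads per kb in wild type against 60.6 with the inversion, and the short transcript at 473 in the inversion. Within the inversion library the short transcript thus came out above the long one per kb. Another annotated coding transcript, ENSMUST00000177495, which keeps exon 11, is not among the listed ones.

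The sum of both transcripts moved far less than either of them. Arhgap19 as a gene had 1451 normalized reads in wild type against 1165 in the inversion, a log2 ratio of -0.32 with a pseudocount of 1 (95% interval -0.43 to -0.20), or 0.803 times the wild-type level (0.743 to 0.868). The interval does not include 0, but the difference stands on 1 library per genotype, and counting intervals lay below 0 for 13.0% and above 0 for 16.7% of the 16756 genes that averaged 10 or more normalized reads. Such an interval narrows with the reads of a gene, so that these shares span genes of unlike depth. It did not reach the 2-fold threshold, which 0.483% of these genes passed downwards and 3.99% passed upwards.

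Dicer1 lies on the minus strand of chromosome 12, from 104687742 to 104751952 in GENCODE M21. Of its 4 listed transcripts, only ENSMUST00000041987 (27 exons, 9851 nt, 1906 predicted residues) is in that annotation. The exons of ENSMUST00000167461, ENSMUST00000169400 and ENSMUST00000170804 were not analysed here, so no sequence that separates the 4 transcripts can be shown. No other annotated gene overlaps Dicer1 or Arhgap19.

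In the wild-type library, ENSMUST00000041987 had 714 reads (723 normalized reads) and ENSMUST00000169400 had an equal number, 714. In the inversion library, ENSMUST00000041987 had 1478 reads (1460 normalized reads). ENSMUST00000169400 had 0 of the gene's 2553 reads there, and the exact interval of its share reached up to 0.144%. The pair was thus listed with equal values in wild type, and with all of its reads under ENSMUST00000041987 in the inversion.

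The other Dicer1 transcripts stood almost still. ENSMUST00000170804 had 854 wild-type and 864 inversion reads, a share of 34.2% (32.4 to 36.1%) and of 33.8% (32.0 to 35.7%). ENSMUST00000167461 had 214 and 211 reads, a share of 8.57% and of 8.26%. For both, the interval of the log2 ratio includes 0, from -0.16 to 0.12 for ENSMUST00000170804 and from -0.34 to 0.22 for ENSMUST00000167461.

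Taken singly, the shares within the pair differed between the libraries, as the choice of Dicer1 required. The intervals here describe these shares and do not test them. ENSMUST00000041987 went from 28.6% (26.8 to 30.4%) of the reads of Dicer1 to 57.9% (55.9 to 59.8%), a log2 ratio of 1.01. ENSMUST00000169400 went from 28.6% to 0% and was at least 244-fold lower, against a floor of 3 reads in the inversion library. Counted as 1 unit, the pair had 1428 wild-type and 1478 inversion reads, or 57.2% (55.2 to 59.2%) and 57.9% of the gene. The log2 ratio of the pair was 0.01 (95% interval -0.09 to 0.12).

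**Figure D2:**
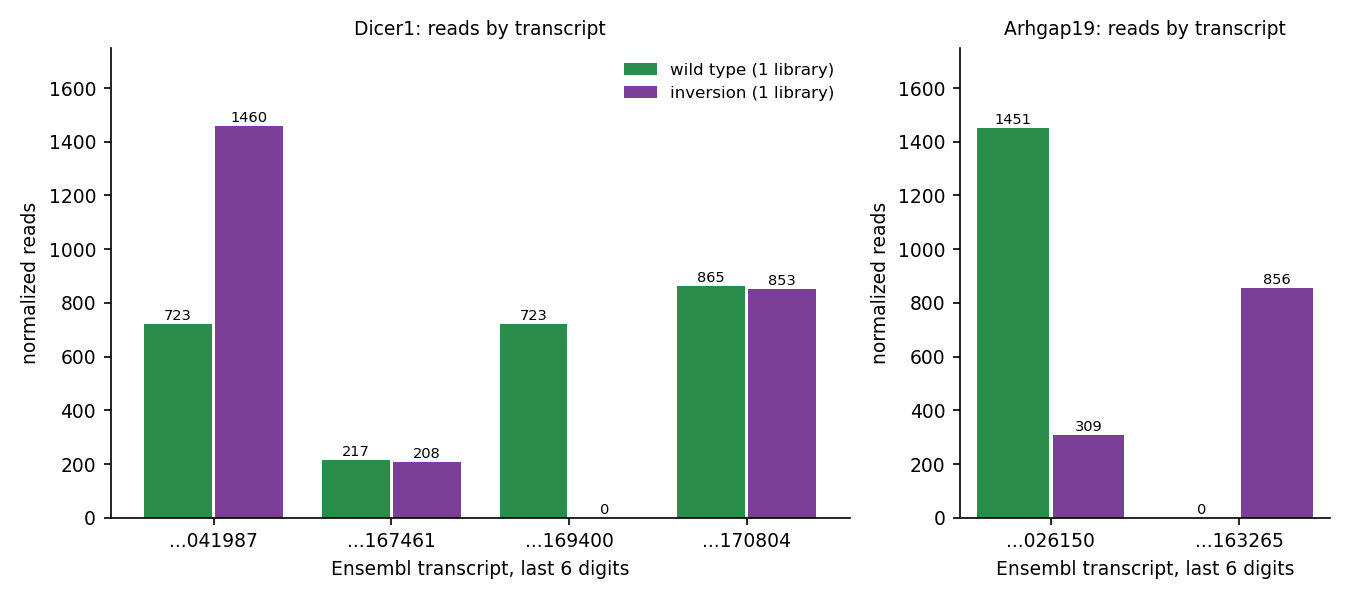
Normalized reads (vertical axis, linear, from 0) of each listed transcript of Dicer1 and Arhgap19 in the wild-type (green) and inversion (purple) library, 1 library each. Bars stand at 723 for both ENSMUST00000041987 and ENSMUST00000169400 in wild type, against 1460 and 0 in the inversion, and Arhgap19 moves from 1451 and 0 to 309 and 856.

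Dicer1 as a gene had 2527 normalized reads in wild type against 2521 in the inversion, with a log2 ratio of -0.0035 (95% interval -0.08 to 0.08), a sign that turned under scaling by the total (0.0040) or the upper quartile (0.05). The inversion library stood at 0.998 times the wild-type level, and the interval of 0.944 to 1.05 bounds what counting error allows for these 2 libraries. A difference in the summed Dicer1 reads was thus not detectable at this depth.

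**Figure D3:**
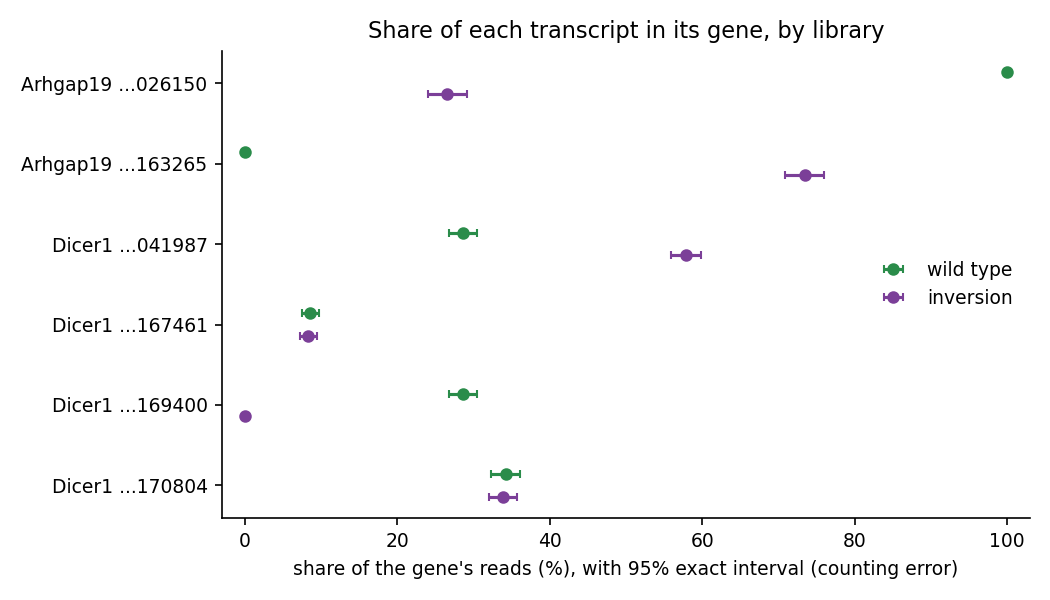
Share of each listed transcript in the reads of its gene (horizontal axis, percent), with 95% exact intervals for counting error, in the wild-type (green) and inversion (purple) library. The intervals of ENSMUST00000167461 and ENSMUST00000170804 overlap between libraries (8.57% and 8.26%, 34.2% and 33.8%), and the intervals of the other 4 do not. Both genes were chosen for such values, so nothing is read from the latter.

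To set both genes beside the rest of the table, a share shift was computed per gene, as the part of its reads, in percentage points, that would have to move between transcripts to turn the shares of one library into those of the other. It was taken over 8579 genes, those that list 2 or more transcripts and average 100 or more normalized reads. The median share shift was 3.39 points, and 90% of genes lay below 12.7 points. Dicer1 had a share shift of 29.3 points and Arhgap19 one of 73.5 points, so that both passed a threshold of 25 points, as did 2.26% of all these genes. The most-read transcript also differed between the libraries for both, as it did for 8.64% of all genes. For Dicer1 this rests on the even split of its pair in wild type. Counted as 1 unit, the pair held most reads of the gene in both libraries, 57.2% and 57.9%. As these values come from the contrast that chose the genes, nothing is read from their place among the others. By share shift Arhgap19 was at rank 5 and Dicer1 at rank 131. Among the 2128 genes with 2 listed transcripts, 4 had a shift as large as that of Arhgap19, itself included, and among the 1147 genes with 4 listed transcripts, 11 had one as large as that of Dicer1.

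**Figure D4:**
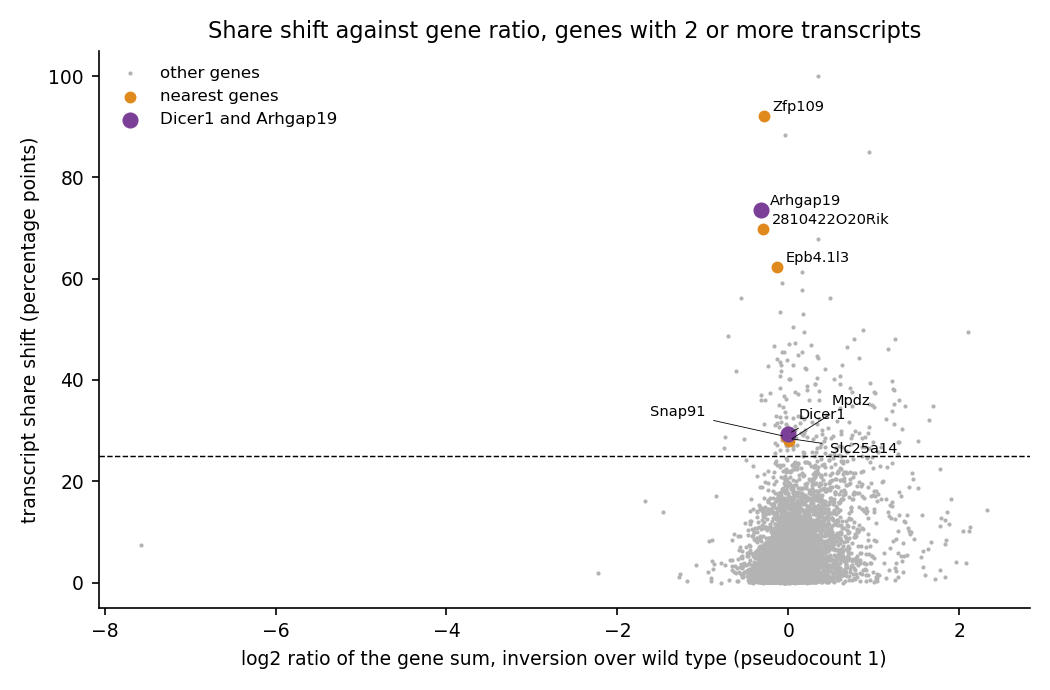
Transcript share shift (vertical axis, percentage points) against the log2 ratio of the gene sum (horizontal axis, inversion over wild type, pseudocount of 1) for 8579 genes, with Dicer1 and Arhgap19 in purple and their 3 nearest genes each in orange. The dashed line marks 25 points. Arhgap19 stands at 73.5 points and -0.32, Dicer1 at 29.3 points and -0.0035.

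When transcripts of a gene with the same number of reads (50 or more) in 1 library were merged, an alternative chosen after seeing the data, the share shift of Dicer1 fell from 29.3 to 0.681 points. Arhgap19 has no equal transcripts to merge, so that its value of 73.5 could not change. The genes differ in this respect, as nearly all of the Dicer1 shift lay within a pair of transcripts with equal wild-type values. Equal values were found in 240 sets of transcripts of the same gene in wild type and in 245 in the inversion. In 38 of these sets the values were equal in both libraries, and in 5 sets of each library all reads lay on 1 transcript in the other library, Dicer1 among them. With 500 or more reads, there were 10 such sets in wild type and 11 in the inversion.

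The other 4 pairs that were equal in wild type and on 1 transcript in the inversion belong to Clta, Fkbp14, Zfp386 and Zmynd11. In Fkbp14, 87 reads on each transcript stood against 175 on 1, a sum that hardly moved, as in Dicer1. In the other 3 the sum was lower in the inversion, with 146 on each against 128 on 1 in Clta, 57 against 63 in Zfp386 and 50 against 55 in Zmynd11. The opposite order, equal in the inversion, was found for Ccnl1, Cd2bp2, Hnrnpl, Kif3c and Med23. In Kif3c, 344 reads on each transcript in the inversion stood against 688 on 1 in wild type, and the log2 ratio of the gene was -0.07. In Cd2bp2, 547 reads on each stood against 1131 on 1, and in Hnrnpl 658 against 1518. In Med23, 516 on each stood against 799 on 1, and in Ccnl1 77 against 58, so that in both the wild-type sum was lower. These pairs were named after their values were seen.

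Transcripts without reads in one library but with 100 or more in the other numbered 45 with none in wild type and 36 with none in the inversion. The short transcript of Arhgap19 had the second-highest number of reads among the former and ENSMUST00000169400 of Dicer1 the highest among the latter. The gene sum differed by less than 1.5-fold in 39 of the 45 cases and in 34 of the 36 cases, a description only, since transcripts were selected here for the same property that chose both genes. Over all 16756 genes, 90% had a log2 ratio below 0.55, and only 6.39% had one below the -0.32 of Arhgap19. Most genes thus lie within 1.5-fold too, and these counts do not set the cases apart.

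The genes most like Arhgap19, by distance in log2 ratio and share shift over these 2 libraries, were 2810422O20Rik, Zfp109 and Epb4.1l3. In 2810422O20Rik, ENSMUST00000045694 had 166 wild-type and 42 inversion reads, while ENSMUST00000111490 had 0 and 97. In Zfp109, ENSMUST00000108439 had 134 and 9 reads and ENSMUST00000037448 had 0 and 104. Epb4.1l3, which encodes a membrane-cytoskeleton linker, had 881 and 40 reads of ENSMUST00000112679, with 0 and 803 of ENSMUST00000080208. All 3 genes thus had a transcript listed at 0 in wild type that held most reads of the gene in the inversion.

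For Dicer1 the nearest genes were Slc25a14, Mpdz and Snap91, with share shifts of 28.5, 28.0 and 28.8 points and log2 ratios of -0.0070, 0.0062 and -0.02. Mpdz, a scaffold protein with many PDZ domains and 13 listed transcripts, had 744 and 352 reads of ENSMUST00000107261 and 147 and 600 of ENSMUST00000107262. None of these 3 genes has a transcript pair like that of Dicer1, with 50 or more equal reads in one library and all of them on 1 transcript in the other.

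The microRNA pathway around Dicer1 was described with a list of 20 other genes, all of which averaged 10 or more normalized reads. Neither direction of the 2-fold threshold was reached by any of the 20, against 3.99% of all 16756 genes upwards and 0.483% downwards. At such shares, none of 20 does not set the list apart. The median log2 ratio of the 20 was 0.04, against -0.02 over all genes. Drosha, which cuts primary microRNA transcripts in the nucleus, had 3370 wild-type and 3159 inversion reads, a log2 ratio of -0.13 (95% interval -0.20 to -0.06). Xpo5, which exports the hairpins that Dicer1 cuts, had 2260 and 2051 reads and a log2 ratio of -0.18 (-0.26 to -0.09). Tarbp2, a double-stranded RNA-binding partner of Dicer1, stood at 0.23 (0.05 to 0.41). The intervals of these 3 genes leave out 0. That of the Dicer1 sum includes it, as do those of many other genes of the list. The Dicer1 interval overlaps those of Drosha and Tarbp2, though not that of Xpo5.

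Among the Argonaute genes, which carry the products of Dicer1, Ago1 (listed as Eif2c1) stood at -0.10, Ago2 (Eif2c2) at -0.0041 and Ago4 (Eif2c4) at 0.14. Ago3 (Eif2c3) stood apart with 456 and 701 reads, a log2 ratio of 0.58 (0.41 to 0.76). Lin28b, which blocks the maturation of let-7 microRNAs, had 144 and 265 reads and the highest log2 ratio of the list, 0.84 (0.55 to 1.15). Its paralog Lin28a had only 14 and 8 reads, and a difference was not detectable at this depth. The counting interval lay above 0 for 5 genes of the list and below 0 for 5, or for 8 and 3 with scaling by the upper quartile. Over all 16756 genes the interval lay above 0 for 16.7% and below 0 for 13.0%, or for 21.6% and 6.96% with scaling by the upper quartile.

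Zcchc6, which adds uridines to RNA ends, including those of microRNA precursors, was the 1 gene of 17 in this list, those with 2 or more listed transcripts and a mean of at least 100, with a share shift of at least 25 points. Over all 8579 such genes, 2.26% passed that threshold, so that 1 gene of 17 does not set the list apart. Its transcript ENSMUST00000079643 had 286 wild-type and 0 inversion reads, while ENSMUST00000071703 had 468 and 900. The share shift was 37.9 points with a gene log2 ratio of 0.22, so that Zcchc6, like Dicer1, was listed without 1 of its transcripts in the inversion library. The median share shift over the 17 genes was 3.77 points, near that of all genes. None of the 17 had another most-read transcript, against 8.64% of all 8579 genes, and with 17 genes nothing is read from this.

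**Figure D5:**
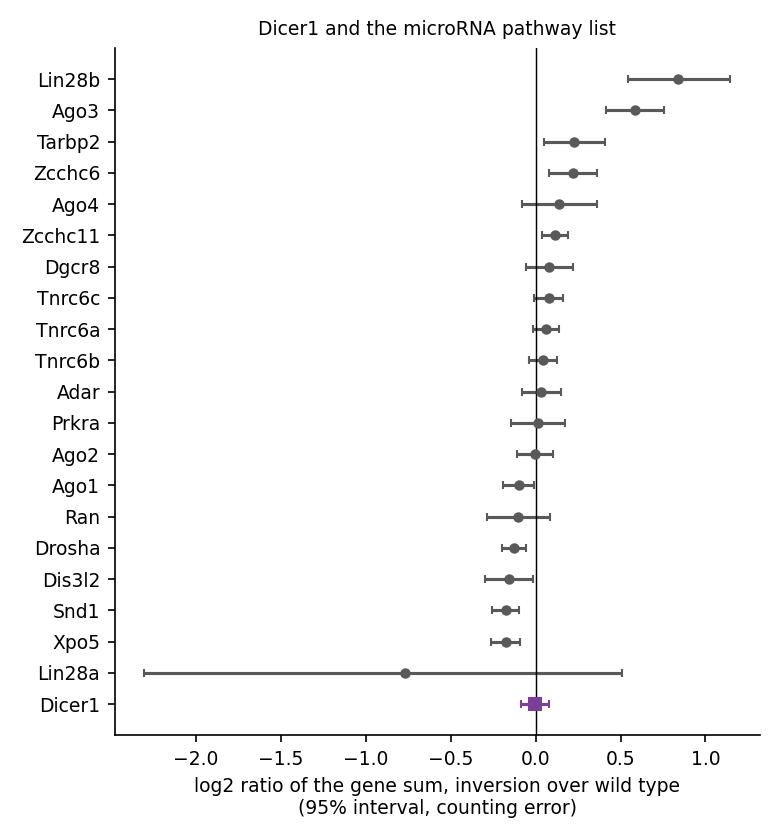
Log2 ratio of the gene sum (horizontal axis, inversion over wild type, pseudocount of 1) with 95% intervals for counting error, for Dicer1 (purple square) and 20 other genes of the microRNA pathway (grey). Dicer1 sits at -0.0035, within its list, while Lin28b is highest at 0.84 and Lin28a, with few reads, has the widest interval.

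Of the 4 markers of proliferating cells, 3 were, like Arhgap19, lower in the inversion library, with intervals below 0, against 13.0% of all genes. Scaled by the upper quartile, 1 interval lay below 0 and 1 above it, against 6.96% and 21.6% of all genes. Top2a had a log2 ratio of -0.28, Cdk1 one of -0.17, Mki67 one of -0.09 and Ccnb1 one of 0.18, and the 4 together went from 12091 to 10508 normalized reads. Their part in the Arhgap19 ratio was not tested. In bulk tissue, fewer cells of a type and less RNA per cell cannot be told apart.

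The labelled tissue was checked with marker genes. The 5 markers of forelimb mesenchyme (Prrx1, Hoxa13, Hoxd13, Tbx5 and Msx1), not all of them limited to its distal part, had 10287 reads together in wild type and 9850 in the inversion. Their log2 ratios ran from -0.61 for Hoxd13 to 0.20 for Tbx5. The paper reports reduced Hoxd13 transcripts in this inversion, so that the Hoxd13 ratio does not read the tissue alone. The hindlimb markers Pitx1 and Tbx4 had 474 and 423 reads together, nearly all of them of Tbx4 (430 and 394), with 44 and 29 of Pitx1. Each marker of other cells was detected. The summed normalized reads of the 3 muscle markers were 627 in wild type and 975 in the inversion, those of the 3 Schwann and neural crest markers 240 and 313, and those of the 3 surface ectoderm markers 3241 and 2728. The 4 erythroid markers stood at 1284 and 1147, the 3 endothelial markers at 2908 and 2740 and the 3 macrophage markers at 645 and 637. Their part in the values of Dicer1 and Arhgap19 was not tested.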

How the data were processed

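RNA-seq of E12.5 distal forelimbs was analysed, 1 library per genotype. According to the methods, stranded poly(A) libraries were sequenced from 1 end to 100 bp, mapped to NCBIM37 and quantified with the HTSstation pipeline, and the submitters' processing notes name Bowtie2. The deposited signal values are, per transcript, reads divided by a library size factor by the authors, with 0.5 for no reads. How reads matching several transcripts were divided, and whether strand was used, is not given in the sources used here. The authors' fold changes and p-values were not used, and 0 sample columns were left unmapped.

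Division by 1 step per library gave whole reads (within 0.1) for 100% of values above 0.5, 0.5 was set to 0, and transcripts were summed by symbol and chromosome. The design expected values without tests, and no count model was fitted. Log2 ratios use a pseudocount of 1 and understate changes of low genes. Structures are from GENCODE M21, which holds 88.1% of the transcript identifiers. The members, gene lists and rules were chosen with earlier results of these data known. The rule for named genes takes both genes, list members past 2-fold, past 25 points or with another most-read transcript, the list members with the most reads, and the 3 nearest genes of each. The result of 1 other gene list is not reported here. Further list members, and pairs with equal values, were named after their values were seen. The steps were tested on simulated data. Computations ran in Python 3.11.15 with scipy 1.17.1, pandas 2.3.3 and numpy 2.4.6, and figures were drawn with matplotlib 3.10.9.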

Additional observations from a re-analysis of the deposited data

How the results depend on the processing

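No paired analysis was possible because each genotype has a lone library. The gene log2 ratios of Dicer1 and Arhgap19 stayed within their counting intervals under both other scalings and pseudocounts of 5 and 0.1. They depended on which transcripts were summed. Dicer1 stood at 1.01 with the transcript of highest mean, and likewise over protein-coding transcripts of the reference, which leave ENSMUST00000041987 alone and so give no share shift. Without transcripts that have no reads in 1 library, an alternative added after seeing the data, it stood at 0.48. Arhgap19 stood at -2.23 with the transcript of highest mean and without transcripts that have no reads in 1 library, both of which leave its long transcript alone. The share shift of Dicer1 was 0.681 points with equal transcripts merged, also added after seeing the data. That of Arhgap19 was 73.5 under each alternative run for it. None of these removed or merged either of its 2 transcripts, so this value could not change and shows no robustness.

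Counts over all genes depended on filters and thresholds, and each filter also changes the number of genes compared. Genes at least 2-fold higher and lower were 668 and 81, 1992 and 1089 without a filter, 139 and 12 over genes averaging 100 or more, and 113 and 13 at 4-fold. Genes with a share shift of at least 25 points were 194 of 8579, with 1302 at 10 points and 16 at 50 points. They were 599 of 10829 with a mean of at least 10 and 64 of 5046 with one of at least 500. Genes with another most-read transcript were 741 of 8579, 359 of 5046 with a mean of at least 500 and 376 over protein-coding transcripts, which leave 5270 genes to compare. With merged transcripts the counts at 25 points and of another most-read transcript were 188 and 718 of 8557. Depth limits Lin28a, with 14 and 8 reads.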

Other observations

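The nearest protein-coding neighbours of both genes were looked up after the values of Dicer1 and Arhgap19 were seen, and only their gene sums were examined. Clmn, 11165 bp from Dicer1 and on the same strand, had 631 wild-type and 853 inversion reads, a log2 ratio of 0.40 (95% interval 0.25 to 0.55). Gsc, a homeobox gene 214412 bp away on the other side, had 76 and 123 reads and a log2 ratio of 0.65 (0.23 to 1.09). Both neighbours were thus above Dicer1 itself, which stood at -0.0035. Counting intervals lay above 0 for 16.7% of all 16756 genes, or for 21.6% with scaling by the upper quartile. With 2 genes looked up afterwards, nothing is read from this. Beside Arhgap19, Slit1, a guidance ligand, had 14 and 20 reads and Frat1, an inhibitor of the kinase Gsk3, had 14 and 15, so that no difference was detectable for them at this depth.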
